A study of Mus musculus with 12 samples.

Results

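Genes of fatty acid uptake, activation, transport into mitochondria and beta-oxidation were followed across 12 mouse hearts. The members were 43 genes listed by name for these functions. Of these, 40 had a probe set annotated to a single gene and 39 passed the filter on low intensity, among 18193 genes with such a probe set and 10916 genes tested. Acsl1, Ucp2 and Cpt1b were not analysed here, since the annotation gave them no probe set of their own. Acsl3, an acyl-CoA synthetase, had intensities of 31.8 to 64.6 over the 12 arrays and lay below the filter.

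The hearts fell into 4 groups with 3 arrays in each, described in the labels as biological replicates. They were knockout hearts with aortic banding, knockout sham hearts, wild-type hearts with aortic banding and wild-type sham hearts, where knockout means loss of the gene for apelin, a secreted peptide of heart and vessels. Banding narrows the aorta, so that the left ventricle works against a raised pressure, and a sham operation leaves the aorta open. Total RNA of the heart was hybridised to Affymetrix arrays, and the labels used here give no strain, age, sex, chamber or time after banding. The values are linear intensities, 1 probe set a gene, and a log2 difference below is a difference of group means of log2(intensity + 16), which understates the change of dim genes. Nothing in the labels beyond the word biological says how the 3 hearts of a group were obtained, so p-values measure the spread between these arrays.

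Heart muscle draws most of its energy from long-chain fatty acids. Lipoprotein lipase frees them from circulating lipoproteins, CD36 and fatty acid transport proteins carry them into the cell, synthetases join them to coenzyme A, and the carnitine shuttle moves them into mitochondria, where the enzymes of the beta-oxidation spiral shorten them in repeated cycles. The genes of this pathway share the nuclear receptor PPARalpha and its coactivator PGC-1alpha as well-known regulators.

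The array labelled knockout banded 1 stood apart from the other arrays of its group, and where it moved a banding difference of a member in knockout hearts past the threshold or by over 1.5 times, both values are given. Apln itself had intensities of 271, 123 and 160.1 in knockout banded hearts, 63.7, 111 and 85.4 in knockout sham, 205, 223 and 255 in wild-type banded and 333, 323 and 212 in wild-type sham hearts. The array labelled knockout banded 1 was therefore above every other knockout array and inside the wild-type range, and whether this probe set lies in the deleted stretch is not known here. The same array had 1094 for Scgb1a1 and 409.6 for Scgb3a2, secreted airway proteins, and its 8 lung markers summed to 1723, against 188 to 319 on the other 11 arrays. Scgb1a1 and Scgb3a2 were 2 of these 8 markers and made up most of that sum. For Sftpb, the 1 tested lung marker, the array deviated by -0.079 log2 from the gene mean, inside the -0.75 to 0.51 of the others. On the array labelled knockout banded 1, the 10 measured fat-cell markers, of 12 listed, summed to 2827, against 1402 and 1908 on the other knockout banded arrays, 1391 to 1531 in knockout sham, 1132 to 2329 in wild-type banded and 1174 to 1501 in wild-type sham hearts. Adiponectin (Adipoq) was at 392, 25.5 and 103 in knockout banded hearts and reached 327 on wild-type banded 1. Ucp1, the uncoupling protein of brown fat, was at 72.0 on the array labelled knockout banded 1, with a highest value of 8.13 elsewhere. Fibroblast markers summed to 9866 on that array and to 21486 and 18365 on knockout banded 2 and 3, against 8736 to 10833 in knockout sham hearts. Myh7, a myosin heavy chain that rises under load, was at 9203, 9324 and 9091 in knockout banded and 1132, 1656 and 1128 in knockout sham hearts. It was at 10045, 6718 and 1918 in wild-type banded and 5182, 1109 and 1361 in wild-type sham hearts. For Myh7 alone, wild-type banded 3 and wild-type sham 1 thus lay apart from their groups. A load-response score was the mean log2 deviation of 10 load-response genes from their gene means. It was 0.37, 0.52 and -0.029 in wild-type banded and -0.0077, -0.96 and -0.059 in wild-type sham hearts. By this score wild-type banded 3 again lay below its group, but wild-type sham 2, and not wild-type sham 1, lay apart.

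Promoter sequence from RefSeq (GRCm38.p6, 250 bases before to 50 after each gene's start) was held for 36 of the 43 members. Hadha and Hadhb, which code for both subunits of the mitochondrial trifunctional protein, face away from each other on chromosome 5, with 272 bases between their starts. Both genes were lower in knockout banded than in knockout sham hearts on every array, and they share the stretch shown here, which lies between their starts at chr5:30155003-30155230. It is printed on the plus strand, with its 15 CpG dinucleotides in capitals, and has 57.0% G and C.
Hadha and Hadhb: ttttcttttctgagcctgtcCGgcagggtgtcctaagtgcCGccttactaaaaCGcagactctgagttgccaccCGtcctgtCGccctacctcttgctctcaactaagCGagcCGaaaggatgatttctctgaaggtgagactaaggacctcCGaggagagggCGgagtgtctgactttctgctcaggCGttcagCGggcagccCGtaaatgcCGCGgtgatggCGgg

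The promoter windows were also searched on both strands for the nuclear receptor half-site AGGTCA (reverse complement TGACCT), the core of the sites that PPAR and ERR receptors bind. It was found for 7 of 36 members (19.4%), namely Acacb, Acadm, Acadvl, Cd36, Cpt1a, Echs1 and Ucp3, and for 18.1% of 27025 genes, so the half-site was about as common in the members as in all genes. The direct repeat AGGTCANAGGTCA, which contains the half-site, matched 0 of 36 members and 0.0481% of all genes, and the extended half-site TCAAGGTCA matched 0 of 36 members and 0.466% of all genes. A match is a string of letters and not a binding site. The windows of Acadvl and Echs1, which are 2 of the 4 members of smallest p for banding in knockout hearts, and of Ucp3, which has 2 matches and the largest SE of the tested members, are shown with the half-site in capitals, each on the strand of its gene. They lie at chr11:70015490-70015535 (minus strand), chr7:140116479-140116524 (minus strand), chr7:100472822-100472867 (plus strand) and chr7:100472927-100472972 (plus strand).
Acadvl: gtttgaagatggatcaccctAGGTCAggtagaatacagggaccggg
Echs1: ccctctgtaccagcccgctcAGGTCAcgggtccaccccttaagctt
Ucp3, far window: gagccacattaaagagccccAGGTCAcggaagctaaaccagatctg
Ucp3, near window: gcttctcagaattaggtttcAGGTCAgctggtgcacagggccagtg

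Banding in knockout hearts went with lower values across most of the pathway. Of 39 members, 37 had a lower mean in knockout banded than in knockout sham hearts and 2, Acsl5 and Mgll, a higher one, where 53.1% of all genes tested were lower. The median log2 difference of the members was -0.38, against -0.02 for all genes. In bulk heart RNA, fewer cells of a type and less RNA per cell cannot be told apart. Acaa2, the mitochondrial 3-ketoacyl-CoA thiolase that ends each turn of the spiral, was the 1 member that passed (limma, Benjamini-Hochberg adjusted p under 0.05 over all genes tested), and it fell. The background was 1.76% of genes passing lower, so a count of 1 in 39 is near it. At an unadjusted p under 0.05, 23 members were lower and 1 was higher (Acsl5), against 10.9% of all genes lower and 10.1% higher. All 3 knockout banded arrays lay below all 3 knockout sham arrays for 19 members, against 14.4% of genes. Among these 19, Lpl, Fabp3 and Acadl changed the sign of their difference under quantile normalization.

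**Figure D1:**
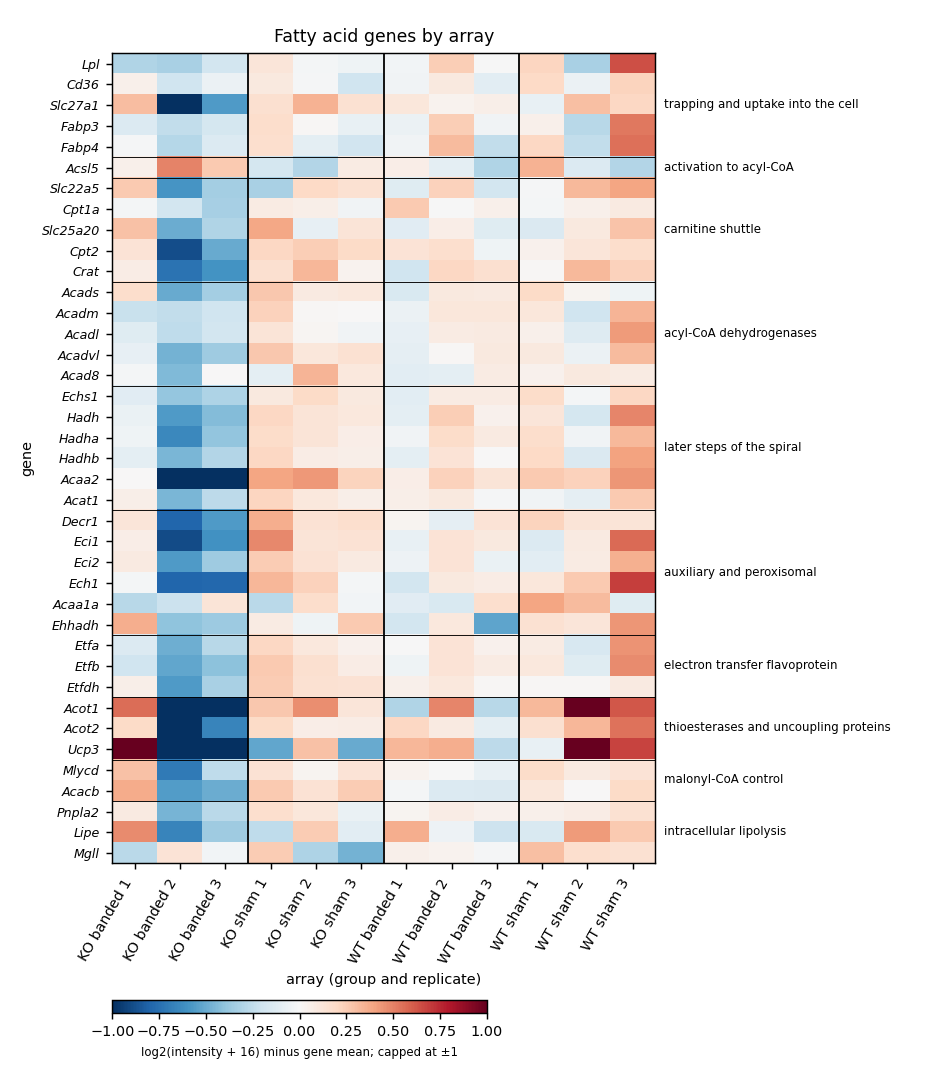
Each row is 1 of 39 fatty acid genes, ordered by role, and each column 1 array. Colour is log2(intensity + 16) minus the gene's mean over 12 arrays, capped at 1 in both directions. Knockout banded 2 and 3 are low for most genes, while the array labelled knockout banded 1 is near or above the mean for many.

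The 3 knockout banded arrays were unlike each other. Knockout banded 2 was below every knockout sham array for 35 of 39 members, against 36.4% of all genes, and knockout banded 3 for 33, against 37.4%, each with Acsl5 above the sham range. The array labelled knockout banded 1 was below every sham array for 20 members, against 28.7% of genes, and above every one for 7, against 28.7% of genes, namely Slc22a5, Ehhadh, Acot1, Ucp3, Mlycd, Acacb and Lipe. The mean deviation of the 39 members from their gene means was 0.09, -0.57 and -0.41 log2 in knockout banded hearts, 0.14, 0.12 and 0.04 in knockout sham, -0.02, 0.11 and -0.03 in wild-type banded and 0.10, 0.11 and 0.31 in wild-type sham hearts. By this mean, knockout banded 2 and 3 were the lowest 2 of 12 arrays, and the array labelled knockout banded 1 lay among the others. Taken by role, its mean was below every knockout sham array for dehydrogenases, later steps, auxiliary and peroxisomal enzymes and the electron transfer flavoprotein. It was above every one for thioesterases and uncoupling proteins, malonyl-CoA control and lipolysis, and inside the sham range for the other roles. Without that array, 23 members passed lower and 0 higher, where 6.95% of all genes passed lower and 6.25% higher, and the median log2 difference was -0.54 for the members and -0.03 for all genes. With array weights, which let the fit give less weight to arrays that deviate from their group, 23 members passed lower too, where 9.04% of all genes did, and 21 of these were the same genes. The weights were estimated from these same values, so this fit is not separate support for leaving out the array labelled knockout banded 1. The p-values without that array, with 2 knockout banded arrays left, depend on its removal. Without any other single array of the knockout banded or knockout sham groups, 0 members passed. The part of fat-cell, lung and fibroblast RNA in this difference between the knockout banded arrays was not tested.

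**Figure D2:**
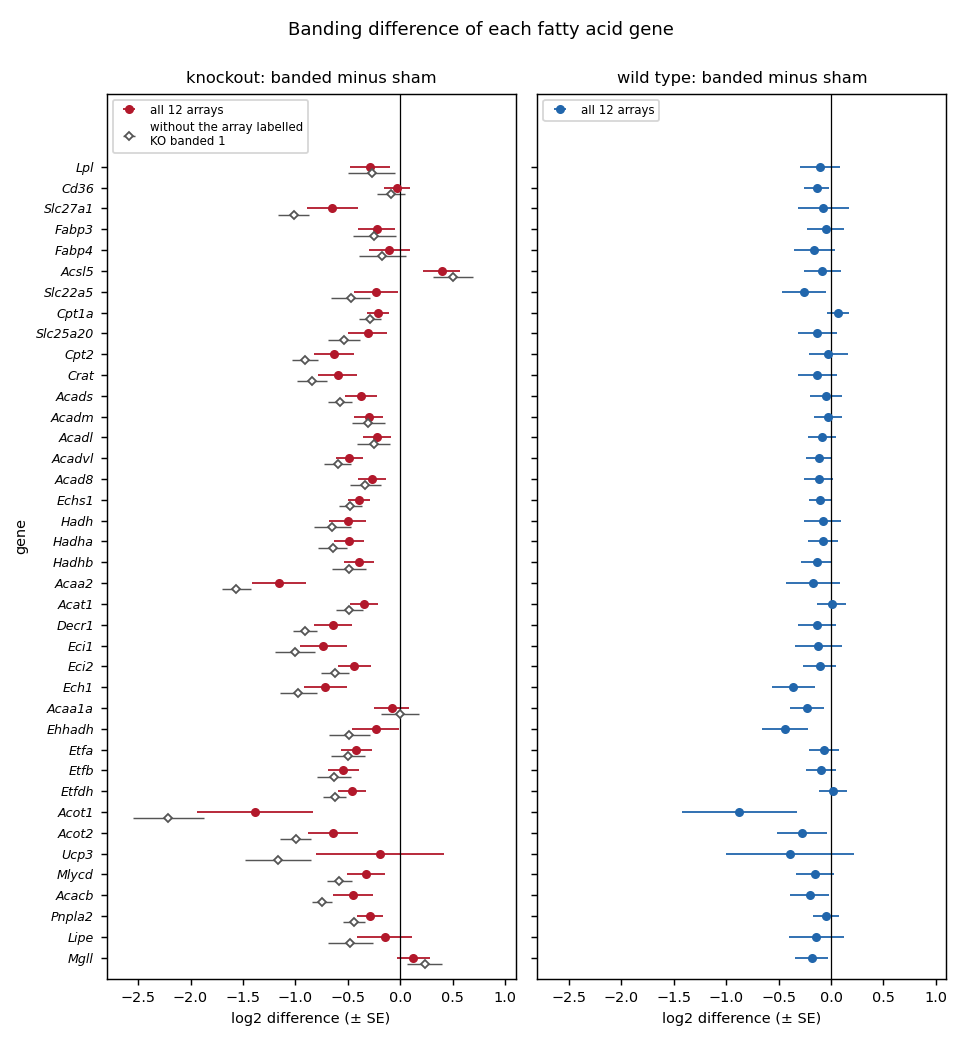
Log2 difference of banded minus sham hearts for each of 39 genes, with the standard error (SE) of the fit as bars, for knockout hearts on the left and wild-type hearts on the right. Open diamonds show knockout hearts without the array labelled knockout banded 1. Most filled points of the knockout panel are below 0, Acaa2 lies at -1.16, and most wild-type points are nearer to 0.

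**Figure D3:**
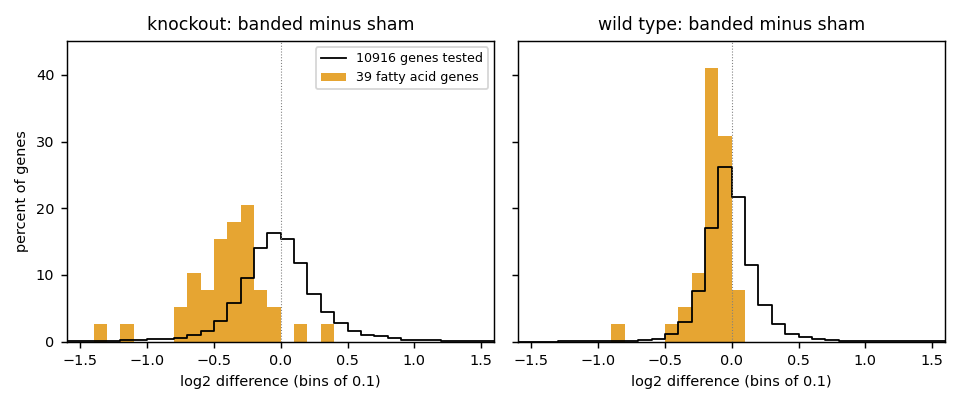
Share of genes in bins of 0.1 log2 for banded minus sham hearts, with 39 fatty acid genes as bars and 10916 genes tested as the line, in knockout hearts on the left and wild-type hearts on the right. In knockout hearts the members' bars centre near their median of -0.38 and in wild-type hearts near -0.12.

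Trapping and uptake at the cell surface held 5 members, of which 0 passed for banding in knockout hearts, where 1.76% of all genes passed lower. Without the array labelled knockout banded 1, 1 member, Slc27a1, passed lower, where 6.95% of all genes did. Slc27a1 codes for fatty acid transport protein 1. Its intensities were 502, 189 and 266 in knockout banded hearts, 450.5, 516 and 447 in knockout sham, 435, 413 and 419 in wild-type banded and 380.4, 499 and 465 in wild-type sham hearts. Knockout banded 2 and 3 were the lowest 2 of 12 arrays, and the array labelled knockout banded 1 was inside the sham range. Slc27a1 differed by -0.65 ± 0.24 log2 (SE) with all arrays (adjusted p = 0.15) and by -1.02 ± 0.15 without that array (adjusted p = 0.0011). Cd36, the main fatty acid translocase of muscle, had intensities of 5593, 4723 and 5189 in knockout banded hearts, 5789, 5369 and 4706 in knockout sham, 5297, 5796 and 5018 in wild-type banded and 6230.4, 5204 and 6321 in wild-type sham hearts. The Cd36 groups overlapped, with a difference of -0.03 ± 0.12 and an adjusted p of 0.92, or -0.09 ± 0.13 and 0.72 without the array labelled knockout banded 1. Lpl, lipoprotein lipase, differed by -0.29 ± 0.19 (adjusted p = 0.41), Fabp3, the fatty acid binding protein of muscle, by -0.22 ± 0.18 (adjusted p = 0.51), and Fabp4, the form of fat cells and capillaries, by -0.11 ± 0.20 (adjusted p = 0.8). Fabp4 was at -0.17 without the array labelled knockout banded 1 (adjusted p = 0.68). Cd36, Lpl, Fabp3 and Fabp4 changed sign under quantile normalization, so no direction is given for them.

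Activation to acyl-CoA was represented among the tested members by Acsl5, a long-chain acyl-CoA synthetase. Acsl5 had intensities of 271, 374 and 315 in knockout banded hearts, 229, 210.3 and 277 in knockout sham, 274, 242 and 208 in wild-type banded and 335, 236 and 209.5 in wild-type sham hearts. Knockout banded 2 and 3 were above every knockout sham array, and the array labelled knockout banded 1 was inside the sham range. Acsl5 differed by 0.39 ± 0.18 and did not pass (adjusted p = 0.22).

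The carnitine shuttle held 5 members, of which 0 passed and 3 passed lower without the array labelled knockout banded 1, where 6.95% of all genes did. Cpt2, carnitine palmitoyltransferase 2 of the inner mitochondrial membrane, had intensities of 2337, 1144 and 1499 in knockout banded hearts, 2451, 2524 and 2435 in knockout sham, 2342, 2396 and 2064 in wild-type banded and 2186, 2319 and 2405 in wild-type sham hearts. The knockout sham arrays lay within a narrow range above all knockout banded arrays, and knockout banded 2 and 3 were below every other array. The other Cpt2 probe set differed by -0.13 with all arrays. The probe set used for Cpt2 differed by -0.63 ± 0.19 with all arrays (adjusted p = 0.082) and by -0.91 ± 0.12 without the array labelled knockout banded 1 (adjusted p = 0.00068). Crat, carnitine acetyltransferase, differed by -0.60 ± 0.19 (adjusted p = 0.091) and without that array by -0.84 ± 0.14 (adjusted p = 0.0028). Slc25a20, the carnitine-acylcarnitine translocase, differed by -0.31 and without that array by -0.54 (adjusted p = 0.36 and 0.039). Slc22a5, the plasma membrane carnitine transporter, and Cpt1a, the liver form of carnitine palmitoyltransferase 1, did not pass either way, with differences of -0.23 and -0.21 over all arrays and of -0.47 and -0.29 without that array. For Cpt1a the mean of its 3 probe sets had the opposite sign.

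The acyl-CoA dehydrogenases, which take the first step of each turn for chains of different length, had 5 members. All 5 had a lower mean in knockout banded hearts, where 53.1% of all genes did, and 0 passed. Without the array labelled knockout banded 1, 2 passed lower, where 6.95% of all genes did. Acadvl, the very long-chain enzyme, had intensities of 4321, 3303 and 3575 in knockout banded hearts, 5538, 4965 and 5112 in knockout sham, 4316, 4619 and 4899 in wild-type banded and 4906, 4399 and 5729 in wild-type sham hearts. Each knockout banded array was below each knockout sham array. Acadvl differed by -0.49 ± 0.13 (adjusted p = 0.053) and, without the array labelled knockout banded 1, by -0.60 ± 0.13 (adjusted p = 0.01). Acads, the short-chain enzyme, differed by -0.38 (adjusted p = 0.18) and by -0.57 without that array (adjusted p = 0.0073). Acadm, the medium-chain enzyme, differed by -0.30, Acadl, the long-chain enzyme, by -0.22, and Acad8, which acts on isobutyryl-CoA of valine breakdown, by -0.27, with adjusted p-values of 0.22, 0.37 and 0.28. Acadl turned to 0.0017 under quantile normalization.

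The later steps of the spiral, hydration, dehydrogenation and thiolysis, had 6 members. All 6 were lower in knockout banded hearts with arrays that did not overlap, against 14.4% of all genes. They lay at the 98.4 to 99.9 percentile of intensity, whereas the 14.4% covers genes of all tested intensities. Under quantile normalization all 6 stayed lower by less, from -0.16 for Hadhb to -1.10 for Acaa2, and their overlap was not examined. Acaa2 had intensities of 4406, 1635 and 2189.9 in knockout banded hearts, 5806, 5959 and 5151 in knockout sham, 4618, 5168 and 4806 in wild-type banded and 5281, 5175 and 5988 in wild-type sham hearts. The group means of Acaa2 were 2744 ± 1467 for knockout banded and 5639 ± 429 for knockout sham hearts (SD, n = 3 each). The knockout banded arrays were all lower than the other 9, with the array labelled knockout banded 1 closest to them. Acaa2 fell by 1.16 log2 with an SE of 0.26 in limma (adjusted p = 0.031). Over the alternative settings in which Acaa2 no longer passed, which included leaving out knockout banded 2 or 3 or any knockout sham array, its difference was -0.85 to -1.22 over 9 settings (adjusted p = 0.058 to 0.14). Without the array labelled knockout banded 1 the difference was -1.56 ± 0.14 (adjusted p = 6.7e-05). The 2 other Acaa2 probe sets differed by -1.25 and -1.10.

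Echs1, short-chain enoyl-CoA hydratase, had intensities of 3115, 2568 and 2723 in knockout banded hearts, 3605, 3843 and 3599 in knockout sham, 3138, 3571 and 3564 in wild-type banded and 3826, 3325 and 3898 in wild-type sham hearts. The knockout banded arrays lay below every other array, and Echs1 differed by -0.40 ± 0.11 (adjusted p = 0.057), or by -0.47 ± 0.11 without the array labelled knockout banded 1 (adjusted p = 0.016). Hadha, the alpha subunit of the trifunctional protein, had intensities of 5132, 3388 and 4028 in knockout banded hearts, 6011, 5791 and 5556 in knockout sham, 5159.8, 6032 and 5633 in wild-type banded and 5973, 5167 and 6642 in wild-type sham hearts. All knockout banded values of Hadha were below the lowest value of each other group. Hadha differed by -0.49 ± 0.15 (adjusted p = 0.082) and by -0.64 ± 0.14 without the array labelled knockout banded 1 (adjusted p = 0.009). Its partner Hadhb, the beta subunit from the shared stretch printed above, differed by -0.39 ± 0.15 (adjusted p = 0.14) and did not pass without that array (adjusted p = 0.066). One of the other Hadhb probe sets differed by 0.32, in the opposite direction. Hadh, the 3-hydroxyacyl-CoA dehydrogenase of shorter chains, and Acat1, acetoacetyl-CoA thiolase, differed by -0.50 and -0.35 (adjusted p = 0.12 and 0.16). Both passed without the array labelled knockout banded 1, at -0.65 and -0.49 (adjusted p = 0.036 and 0.028).

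Auxiliary and peroxisomal enzymes, which handle double bonds and very long chains, had 6 members, 0 of which passed. Without the array labelled knockout banded 1, 4 passed lower, where 6.95% of all genes did. Ech1, which shifts double bonds of unsaturated fatty acids, had intensities of 6408, 3737 and 3764 in knockout banded hearts, 8183, 7608 and 6421 in knockout sham, 5728, 6951 and 6838 in wild-type banded and 7022, 7800.4 and 10494 in wild-type sham hearts. Ech1 was lower on each knockout banded array than on each knockout sham array, and knockout banded 2 and 3 were near each other. Ech1 differed by -0.71 ± 0.21 (adjusted p = 0.077) and by -0.97 ± 0.17 without the array labelled knockout banded 1 (adjusted p = 0.0038). Eci1 and Eci2, enoyl-CoA isomerases, differed by -0.73 and -0.44, and Decr1, the mitochondrial dienoyl-CoA reductase, by -0.64 (adjusted p = 0.086, 0.13 and 0.07). Without that array these were -1.003, -0.62 and -0.91 (adjusted p = 0.0052, 0.011 and 0.00053).

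The peroxisomal members behaved less evenly. Ehhadh, the peroxisomal bifunctional enzyme, had intensities of 93.8, 48.5 and 50.3 in knockout banded hearts, 74.2, 66.7 and 86.6 in knockout sham, 59.1, 76.1 and 43.1 in wild-type banded and 79.1, 76.7 and 99.8 in wild-type sham hearts. The array labelled knockout banded 1 was above every knockout sham array and knockout banded 2 and 3 below every one. Ehhadh differed by -0.24 ± 0.22 (adjusted p = 0.59) and by -0.48 ± 0.20 without the array labelled knockout banded 1 (adjusted p = 0.14). Acaa1a, the peroxisomal thiolase, had intensities of 269, 282 and 362 in knockout banded hearts, 270.0, 374 and 323 in knockout sham, 303, 294 and 372 in wild-type banded and 437, 415 and 302 in wild-type sham hearts. Its groups overlapped, and the difference of -0.08 ± 0.17 (adjusted p = 0.83) turned to 0.028 without knockout sham 2 and was -0.0016 without the array labelled knockout banded 1.

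The electron transfer flavoprotein and its dehydrogenase, which pass electrons of beta-oxidation to the respiratory chain, had 3 members. All 3 had knockout banded arrays below the knockout sham arrays, against 14.4% of all genes. They too were bright genes, and under quantile normalization Etfa, Etfb and Etfdh stayed lower by less, at -0.27, -0.34 and -0.40. Etfb, the beta subunit, had intensities of 6274, 5009.9 and 5419 in knockout banded hearts, 8622, 8055 and 7575 in knockout sham, 6984, 7924 and 7617 in wild-type banded and 7768, 6622 and 10025 in wild-type sham hearts. The knockout banded arrays were the lowest 3 of 12. Etfb differed by -0.54 ± 0.15 (adjusted p = 0.059) and by -0.63 ± 0.16 without the array labelled knockout banded 1 (adjusted p = 0.025). Etfdh, the dehydrogenase of the inner membrane, had intensities of 3582, 2325 and 2756 in knockout banded hearts, 4122, 3828 and 3811 in knockout sham, 3565, 3712 and 3480.1 in wild-type banded and 3471, 3484 and 3665 in wild-type sham hearts. On the array labelled knockout banded 1, Etfdh was below the sham range of knockouts yet inside the range of wild-type hearts. Etfdh differed by -0.46 ± 0.13 (adjusted p = 0.07) and by -0.63 ± 0.11 without that array (adjusted p = 0.0027). Etfa, the alpha subunit, differed by -0.42 and -0.50 with and without that array and passed in neither fit (adjusted p = 0.12 and 0.06).

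Thioesterases and uncoupling proteins held 3 tested members, and Acot1 and Ucp3 had the largest SEs of the 39 tested members. Acot1, the cytosolic acyl-CoA thioesterase, had intensities of 153, 19.1 and 9.94 in knockout banded hearts, 122, 142 and 109 in knockout sham, 77.0, 145 and 79.0 in wild-type banded and 127, 330.0 and 161 in wild-type sham hearts. Knockout banded 2 and 3 were the lowest 2 of 12 arrays, whereas the array labelled knockout banded 1 was above every knockout sham array. Acot1 differed by -1.38 ± 0.55 with all arrays (adjusted p = 0.17) and by -2.21 ± 0.34 without that array (adjusted p = 0.0016). Acot1 and its mitochondrial neighbour Acot2 are closely similar genes on chromosome 12, so their signals may mix. Acot2 differed by -0.64, and by -0.99 without the array labelled knockout banded 1 (adjusted p = 0.15 and 0.0014). Ucp3, the mitochondrial uncoupling protein of muscle and brown fat, had intensities of 685, 74.3 and 81.7 in knockout banded hearts, 157, 289 and 159.9 in knockout sham, 298, 304 and 192 in wild-type banded and 221, 485 and 382 in wild-type sham hearts. The array labelled knockout banded 1 was the highest of 12 and knockout banded 2 and 3 the lowest. Ucp3 differed by -0.20 ± 0.61 with all arrays (adjusted p = 0.89), by -1.16 ± 0.32 without the array labelled knockout banded 1 (adjusted p = 0.032), and by 0.31 and 0.26 without knockout banded 2 or 3. The other Ucp3 probe set differed by 0.15 with all arrays, in the opposite direction.

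**Figure D4:**
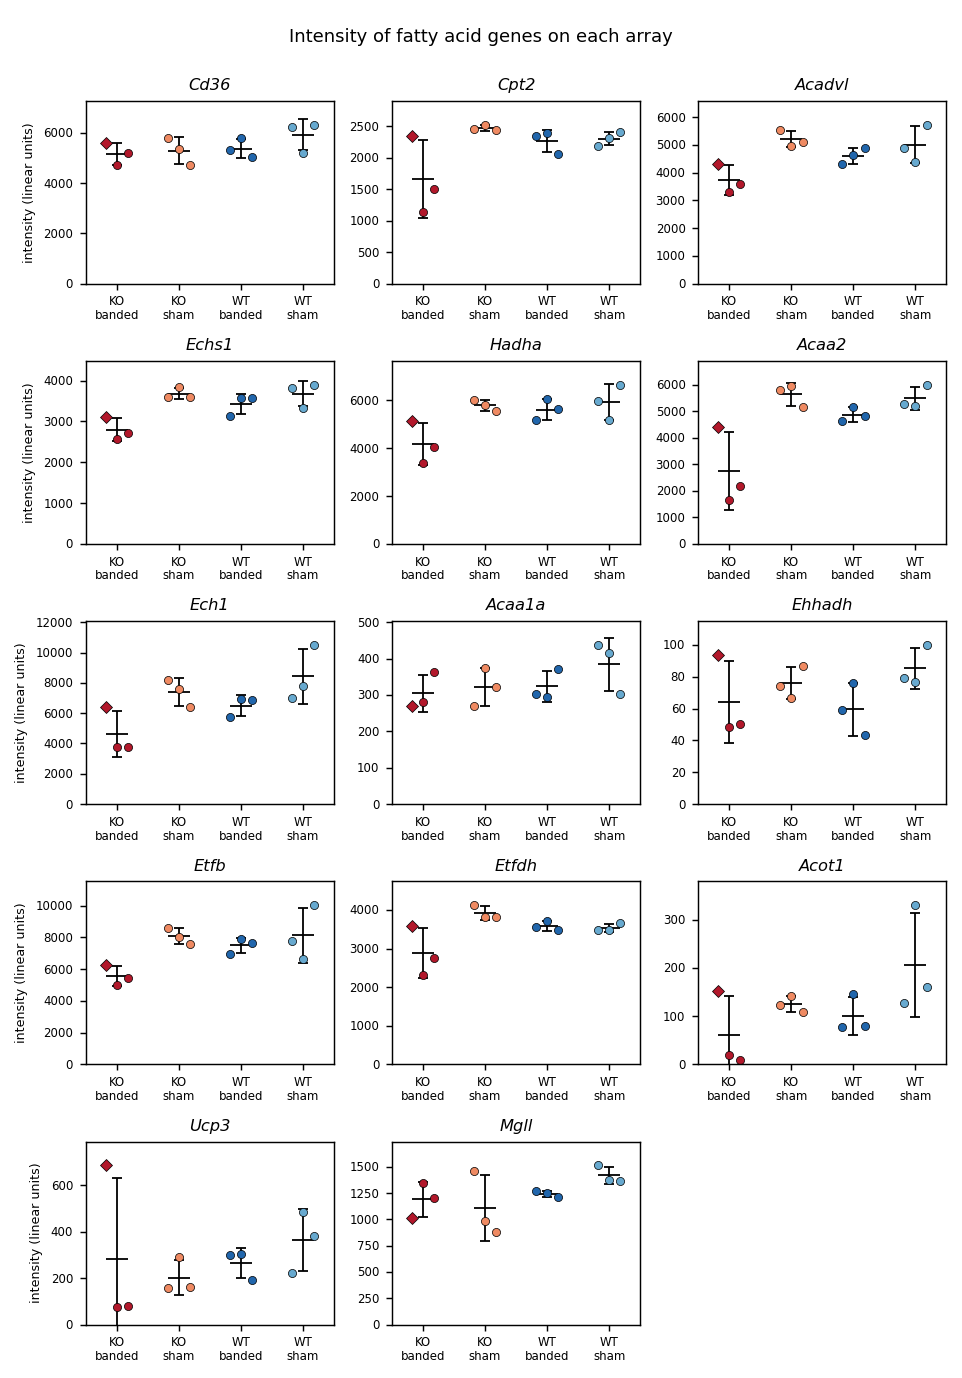
Intensity of 14 fatty acid genes on each array, in linear units on axes that start at 0, with the group mean and SD (n = 3) as a horizontal tick and bars, cut at 0 where the SD is larger than the mean. Diamonds mark the array labelled knockout banded 1. For Acaa2 the knockout banded arrays sit at 4406, 1635 and 2189.9, below all others.

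Malonyl-CoA blocks the entry of fatty acids into mitochondria, and 2 members set its level. Acacb, the acetyl-CoA carboxylase that makes it, differed by -0.45 ± 0.19 (adjusted p = 0.19) and Mlycd, the decarboxylase that removes it, by -0.32 ± 0.18 (adjusted p = 0.33). On the array labelled knockout banded 1 both were above every knockout sham array, at 1413 and 1010.0. Both passed lower without that array, where 6.95% of all genes did. Acacb was then at -0.75 and Mlycd at -0.58 (adjusted p = 0.00047 and 0.0087). By the probe sets used, the genes that make and remove malonyl-CoA thus differed in the same direction, though neither passed with all arrays. The other Acacb probe set differed by 0.29 with all arrays, in the opposite direction.

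Intracellular lipolysis, the release of stored fatty acids, had 3 members and 0 passed. Pnpla2, adipose triglyceride lipase, differed by -0.29 ± 0.13 (adjusted p = 0.21) and passed at -0.44 without the array labelled knockout banded 1 (adjusted p = 0.017). Lipe, hormone-sensitive lipase, was at 373, 161 and 203 in knockout banded and 219, 318 and 245 in knockout sham hearts, and its difference of -0.15 turned to 0.093 without knockout banded 2 and was -0.48 without the array labelled knockout banded 1 (adjusted p = 0.17). Mgll, monoacylglycerol lipase, had intensities of 1017, 1350.5 and 1203 in knockout banded hearts, 1461, 986 and 879 in knockout sham, 1269, 1253 and 1213 in wild-type banded and 1513, 1376 and 1367 in wild-type sham hearts. Its knockout groups overlapped, with a difference of 0.13 ± 0.16 (adjusted p = 0.7), or 0.23 ± 0.17 without the array labelled knockout banded 1 (adjusted p = 0.41).

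In wild-type hearts banding went with small differences in these genes. The load-response score of wild-type banded 3 was -0.029, between the -0.0077 and -0.059 of wild-type sham 1 and 3. The load markers thus did not separate the wild-type groups, and the bearing of this on the small differences was not tested. Of 39 members 36 had a lower mean in wild-type banded than in wild-type sham hearts, with a median log2 difference of -0.12, against 55.8% of all genes lower and a median of -0.02. In limma 0 members passed, as did 0% of all genes, and at an unadjusted p under 0.05 there were 0 members, where the background was 4.89% of genes. For 6 members the banded arrays lay below the sham arrays without overlap, against 6.17% of genes. The 4 members of smallest p were Ehhadh, Ech1, Acot1 and Acaa1a, whose values are given above. Ehhadh differed by -0.44 ± 0.22 (adjusted p = 0.92), with wild-type banded 3 the lowest of 12 arrays. Ech1 differed by -0.36 ± 0.21 (adjusted p = 0.92), and each banded value was below each sham value. Acot1 differed by -0.87 ± 0.55 (adjusted p = 0.93), a difference to which wild-type sham 2, at 330.0, contributed most. Acaa1a differed by -0.23 ± 0.17 (adjusted p = 0.97). Acaa2, which passed in knockout hearts, differed by -0.17 ± 0.26 in wild-type hearts (adjusted p = 0.987), with its wild-type banded arrays all below the sham arrays.

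Between sham hearts the genotypes differed little in these genes. Of 39 members 16 had a higher and 23 a lower mean in knockout sham than in wild-type sham hearts, with a median log2 difference of -0.01, where 49.3% of all genes were lower. In limma 0 members passed, as did 0% of all genes, and 1 member, Mgll, had an unadjusted p under 0.05, where the background was 5.22% of genes. Mgll was at 1461, 986 and 879 in knockout sham and 1513, 1376 and 1367 in wild-type sham hearts, which overlapped through knockout sham 1, and differed by -0.38 ± 0.16 (adjusted p = 0.93). Acaa1a, Cd36 and Ucp3, next in order of p, differed by -0.24 ± 0.17, -0.16 ± 0.12 and -0.78 ± 0.61 (adjusted p = 0.957, 0.958 and 0.963).

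Between banded hearts 37 of 39 members had a lower mean in knockout than in wild-type hearts, with a median log2 difference of -0.28, where 49.4% of all genes were lower. In limma 0 members passed, as did 0% of all genes. At an unadjusted p under 0.05, 15 members were lower and 1 (Acsl5) was higher, against 6.62% and 7.98% of all genes. The arrays did not overlap for 10 members, all lower in knockout, against 8.95% of genes. The 4 members of smallest p were Acaa2, Hadha, Etfb and Echs1. Acaa2 was lower on every knockout banded array than on any wild-type banded array and differed by -0.95 ± 0.26 (adjusted p = 0.16). Hadha differed by -0.44 ± 0.15, Etfb by -0.43 ± 0.15 and Echs1 by -0.29 ± 0.11, all with adjusted p = 0.22 to 0.24, and each of the 3 had knockout banded arrays below all wild-type banded arrays. Without the array labelled knockout banded 1, 16 members passed lower, where 2.89% of all genes did, and the median log2 difference was -0.43 for the members and -0.0043 for all genes. Acaa2 then differed by -1.35 ± 0.14 (adjusted p = 0.0006), Cpt2 by -0.78 ± 0.12 (adjusted p = 0.0041) and Hadha by -0.60 ± 0.14 (adjusted p = 0.023). With all arrays, the other Cpt2 probe set differed by 0.039, in the opposite direction. The comparison shares its knockout banded arrays with that of banding in knockout hearts.

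The interaction, the banding difference in knockout hearts minus that in wild-type hearts, tests whether the genotypes differed in their response. Of 39 members 31 had a negative interaction, with a median of -0.28 log2, where 49.6% of all genes were negative. In limma 0 members passed, as did 0% of all genes, and 3 members (Acaa2, Etfdh and Cpt2) had an unadjusted p under 0.05 in the negative direction, where the background was 4.04% of genes. Acaa2 had an interaction of -0.99 ± 0.36 (adjusted p = 0.48), Etfdh of -0.48 ± 0.19 (adjusted p = 0.5), Cpt2 of -0.61 ± 0.27 (adjusted p = 0.54) and Etfb of -0.44 ± 0.21 (adjusted p = 0.54). The other Cpt2 probe set had an interaction of -0.066. With all arrays, the larger banding difference in knockout hearts was therefore not shown to differ from that in wild-type hearts for any single member. Without the array labelled knockout banded 1, 5 members passed negative, where 0.87% of all genes did, and 35 had a negative interaction, with a median of -0.43. These were Acaa2 at -1.39, Slc27a1 at -0.94, Cpt2 at -0.88, Decr1 at -0.77 and Etfdh at -0.65 (adjusted p = 0.0053 to 0.042).

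Averaged over genotypes, 0 members passed for banding in limma, where 1.6% of all genes did, and 18 had an unadjusted p under 0.05, all lower, against 10% of genes. Averaged over surgery, 0 members passed for knockout against wild type, as did 0% of all genes, and 4 had an unadjusted p under 0.05, all lower, against 4.59% of genes. Without the array labelled knockout banded 1 these counts of passing members were 20 for banding and 4 for genotype (Acaa2, Acot1, Acot2 and Ucp3), all lower, against 4.76% and 0.559% of genes passing lower.

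Genes around the pathway were read from lists chosen with earlier results known. Of 35 tested genes of other fatty acid handling, 1 rose and 4 fell for banding in knockout hearts, against 2.05% and 1.76% of all genes. Prkab1, a regulatory subunit of AMP-activated kinase, had intensities of 258, 249 and 245 in knockout banded hearts, 501, 458 and 497 in knockout sham, 347, 329 and 283 in wild-type banded and 474, 359 and 464 in wild-type sham hearts. The knockout banded arrays, including the array labelled knockout banded 1, were the lowest 3 of 12 and near each other. Prkab1 differed by -0.91 ± 0.12 (adjusted p = 0.0075). G0s2, an inhibitor of adipose triglyceride lipase, had intensities of 360.1, 272 and 218 in knockout banded hearts, 600.0, 467 and 799 in knockout sham, 381, 519.5 and 525 in wild-type banded and 435, 342 and 459 in wild-type sham hearts. G0s2 differed by -1.09 ± 0.21 (adjusted p = 0.021), and its knockout banded values were below every knockout sham value. Slc25a42, the mitochondrial carrier of coenzyme A, and Hsd17b10, a short-chain hydroxyacyl-CoA dehydrogenase, fell by 0.97 and 0.48 log2 (adjusted p = 0.031 and 0.043). Acot9, a mitochondrial thioesterase, was at 479.6, 663 and 674 in knockout banded and 384, 367 and 425 in knockout sham hearts, and rose by 0.59 (adjusted p = 0.031). Of 13 tested genes of other peroxisomal oxidation 0 passed. With the array labelled knockout banded 1 left out, 2 genes of other fatty acid handling passed higher and 6 lower, and 1 of peroxisomal oxidation passed lower, against 6.25% and 6.95% of all genes.

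The PPAR, PGC-1 and ERR regulators had 21 tested genes, of which 1, Rxrg, a retinoid X receptor that pairs with PPARs, fell for banding in knockout hearts and 0 rose, against 1.76% and 2.05% of all genes. Rxrg was at 383, 312 and 382 in knockout banded and 515, 502 and 509 in knockout sham hearts and differed by -0.49 ± 0.12 (adjusted p = 0.039). Ppara, the gene of PPARalpha, had intensities of 404, 265 and 303 in knockout banded hearts, 510.0, 529 and 516 in knockout sham, 445, 562 and 697 in wild-type banded and 384, 470.3 and 634 in wild-type sham hearts. The knockout sham arrays were close to each other and above all knockout banded arrays. Ppara differed by -0.67 ± 0.20 (adjusted p = 0.077) and by -0.84 ± 0.20 without the array labelled knockout banded 1 (adjusted p = 0.017). Ppargc1a, the gene of PGC-1alpha, had intensities of 819, 475 and 488 in knockout banded hearts, 846, 820.4 and 840.5 in knockout sham, 771, 928 and 1017 in wild-type banded and 815, 949.8 and 982 in wild-type sham hearts. On the array labelled knockout banded 1 Ppargc1a was just below the knockout sham range, and knockout banded 2 and 3 were the lowest 2 of 12. Ppargc1a differed by -0.53 ± 0.18 (adjusted p = 0.11) and by -0.78 ± 0.12 without that array (adjusted p = 0.0018). Without it 6 regulators passed lower (Ppara, Ppargc1a, Esrra, Klf15, Rxra and Rxrg) and 1, Hif1a, passed higher, against 6.95% and 6.25% of all genes.

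Genes of glucose use had 20 tested members, of which 3 fell and 0 rose for banding in knockout hearts, against 1.76% and 2.05% of all genes. The count was 5 lower without the array labelled knockout banded 1, where 6.95% of all genes passed lower. Slc2a4, the insulin-responsive glucose transporter, had intensities of 2549, 1934 and 2317 in knockout banded hearts, 3939.6, 3495 and 3443 in knockout sham, 2750.0, 3311 and 2828 in wild-type banded and 3104, 2839.9 and 4019 in wild-type sham hearts. The knockout banded arrays were the lowest 3 of 12, and Slc2a4 differed by -0.68 ± 0.14 (adjusted p = 0.027). Pdp1 and Pdp2, phosphatases that activate pyruvate dehydrogenase, differed by -0.50 and -1.04 (adjusted p = 0.03 and 0.0497). Pdk4, a kinase that inactivates pyruvate dehydrogenase and a known PPARalpha target, had intensities of 5696, 1293 and 2819.8 in knockout banded hearts, 1189, 1671 and 997 in knockout sham, 3955, 3348 and 3218 in wild-type banded and 2295, 4633 and 3343 in wild-type sham hearts. The array labelled knockout banded 1 was the highest of 12, and the knockout groups overlapped. Pdk4 differed by 1.12 ± 0.41 for banding in knockout hearts (adjusted p = 0.14), or by 0.60 ± 0.33 without the array labelled knockout banded 1 (adjusted p = 0.27), and by -1.38 ± 0.41 for knockout against wild type in sham hearts, where its arrays did not overlap (adjusted p = 0.93).

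**Figure D5:**
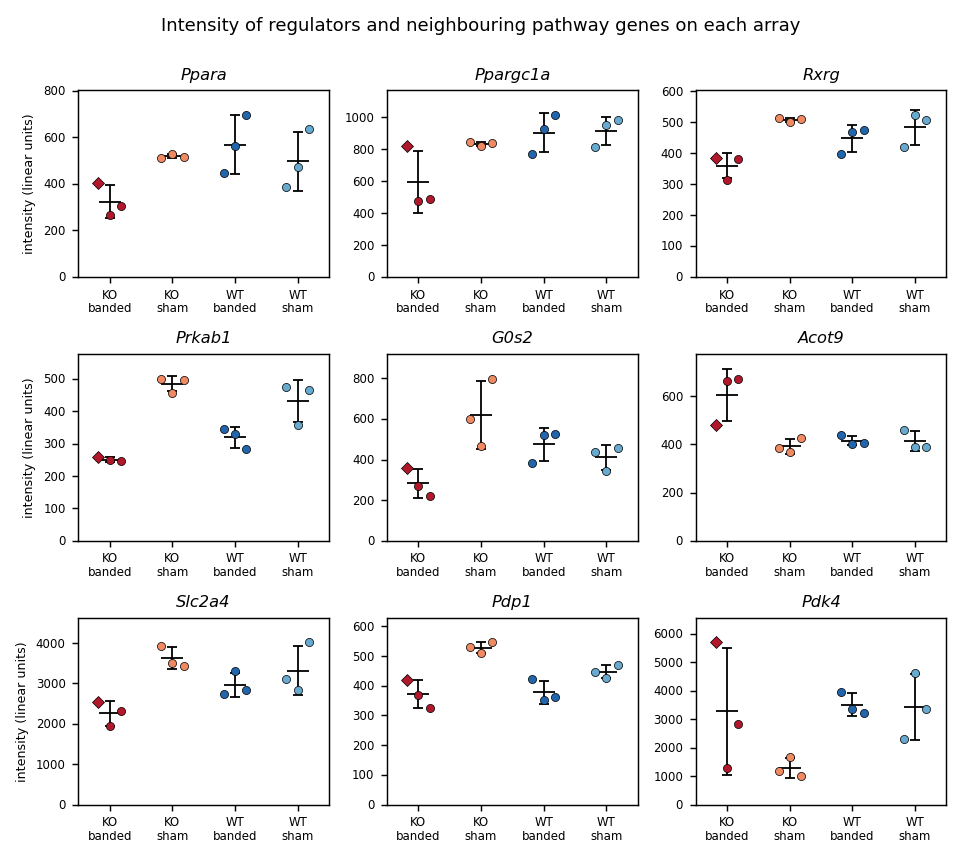
Intensity of 9 regulators and neighbouring pathway genes on each array, in linear units on axes that start at 0, with the group mean and SD (n = 3) as a horizontal tick and bars. Diamonds mark the array labelled knockout banded 1, which lies with its group for Prkab1 and Slc2a4 and far above it for Pdk4.

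Markers of heart muscle cells also differed between knockout banded and knockout sham hearts. Of 13 cardiomyocyte markers, 12 had a lower mean in knockout banded hearts, where 53.1% of all genes did, with a median log2 difference of -0.29. The arrays of 11 did not overlap, all lower, against 14.4% of genes, and 1, Ryr2, the calcium release channel, fell (adjusted p = 0.032), against 1.76% of genes. When the array labelled knockout banded 1 was left out, 12 were lower too, the median was -0.30 and Ryr2 alone passed. Their summed intensity was 105394 to 109383 in knockout banded, 125204 to 139767 in knockout sham, 120251 to 146799 in wild-type banded and 104521 to 190617 in wild-type sham hearts. On the array labelled knockout banded 1 the cardiomyocyte sum was 109383, the highest of its group, so this sum did not separate that array from knockout banded 2 and 3. Cardiomyocyte markers such as Tnnt2 and Myl3 were among the brightest genes measured. The highest intensity of any gene was lower on every knockout banded array than on every knockout sham array. Whether the cardiomyocyte markers stay lower under quantile normalization was not tested. Of 11 fibroblast markers 4 rose for banding in knockout hearts, against 2.05% of all genes, namely Col1a1, Col3a1, Postn and Pdgfrl, by 1.18, 1.47, 2.63 and 0.79 log2. These 4 and Col1a2 passed higher without the array labelled knockout banded 1, against 6.25% of genes, and the median of the 11 was 0.73, against 0.41 with all arrays. The part of a changed share of muscle cells in the members' differences was not tested.

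Of the 39 tested members, 25 had other single-gene probe sets, 36 in all, and 9 of these differed in the opposite direction for banding in knockout hearts. The highest intensity of an array ranged from 10231 to 21832. It was 10813 to 11291 on the knockout banded arrays, below the 12544 to 14746 of the knockout sham arrays. Under quantile normalization, which gives all arrays the same distribution, 32 members were lower and 7 higher for banding in knockout hearts, 4 passed lower, and the median log2 difference was -0.29. The differences of the bright members Acadm and Hadhb went from -0.30 and -0.39 to -0.07 and -0.16. The overlap of arrays was not examined on quantile-normalized values.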

How the data were processed

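Total RNA of 12 mouse hearts was labelled with biotin and hybridised to Affymetrix arrays, per the labels' protocols. The deposited values are a linear intensity for each of 45101 probe sets, and the software that made them is not given in the sources used here. The trimmed mean of each array (2% off the top and 2% off the bottom) was 150, so no further scaling was applied. Array data have no read depth, and the number of arrays limits the precision.

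The annotation gave 34945 probe sets 1 gene, 932 several genes and 9160 none; 34741 matched RefSeq by Entrez number and 0 symbols changed. Control probe sets (64) were left out. Where a gene had several probe sets, the one of highest mean log2(intensity + 16) stood for it, and the upper 60% of 18193 genes (10916) entered the tests. The fit used limma 3.58.1 in R 4.3.3, with a mean for each of the 4 groups, a variance trend in eBayes and 8 residual degrees of freedom. P-values were two-sided and adjusted by Benjamini-Hochberg over all genes tested in a contrast, with 0.05 as the threshold. SE is from the fit, and SD is over 3 arrays.

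Values on every array are given for members that passed and for the 4 of smallest p in each of 5 contrasts. After their values were seen, Slc27a1 and Acsl5 were added on every array and Lipe on the knockout arrays. Acacb and Mlycd were added on the array labelled knockout banded 1 only. Of other pathway, cardiomyocyte and fibroblast lists, the genes that passed with all arrays for banding in knockout hearts and Ppara, Ppargc1a and Pdk4 are named. The members, lists and rules were chosen with earlier results of these data known. On simulated data for banding in knockout hearts with 10916 genes, 83.7% of 200 genes changed 2-fold were recovered, with 5.99% of calls false, as means of 3 runs. The simulated noise was independent between genes, with equal spread in all groups and no deviating array. The recovered share therefore does not describe how often the members, most of which changed less, would pass. Alternatives were the filter, pseudocount, scaling, choice of probe set, array weights, groups fitted, replicate block and leaving out arrays. Quantile normalization without the array labelled knockout banded 1, and a fit without 3 arrays, were added after the data were seen.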

Additional observations from a re-analysis of the deposited data

How the results depend on the processing

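The count of members passing for banding in knockout hearts was 0 without the intensity filter, with every probe set tested, with only the groups compared in the fit, and without wild-type sham 1 and wild-type banded 3. It was 4 with the upper 40% of genes and with quantile normalization, 23 with array weights, 22 without the arrays labelled knockout banded 1 and wild-type banded 1, 25 with quantile normalization without the array labelled knockout banded 1, and 23 without that array, wild-type sham 1 and wild-type banded 3. Leaving out each array in turn gave 0 to 23, and the 23 came without the array labelled knockout banded 1. Of these, 21 also passed under array weights, and 23 under quantile normalization without the same array. For banding averaged over genotypes these counts were 11 with array weights, 0 to 20 on leaving out each array, 12 without the fat-marker arrays (those labelled knockout banded 1 and wild-type banded 1), 25 with quantile normalization without the array labelled knockout banded 1, and 15 without 3 arrays. For knockout against wild type in banded hearts they were 11, 0 to 16, 13, 23 and 9, in the same order. Genotype averaged over surgery gave 0 to 4, 3, 8 and 4, and the interaction 0 to 5, 3, 11 and 1, with array weights adding none. Calls over all 10916 genes rose too. The order below is array weights, without the fat-marker arrays, that quantile normalization, and without 3 arrays. Genes passing lower were 987, 690, 755 and 754 for banding in knockout hearts, against 192 in the main fit. They were 399, 407, 599 and 522 for banding averaged over genotypes. Between banded hearts they were 257, 231, 346 and 210, against 0 in the main fit. The cause was not tested. Banding in wild-type hearts and knockout against wild type in sham hearts gave 0 members under every alternative run. Of the values of single genes under the alternatives, 1359 kept their direction and side of the threshold, 144 came to pass, 9 no longer passed and 20 changed sign.

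For banding in knockout hearts, quantile normalization turned Lpl to 0.0027, Cd36 to 0.14, Fabp3 to 0.050, Fabp4 to 0.12 and Acadl to 0.0017, and without the array labelled knockout banded 1 it gave 0.014 for Lpl, 0.083 for Cd36, 0.042 for Fabp3 and 0.046 for Fabp4. Scaling to one median gave Cd36 0.020. The mean of all probe sets gave 0.076 for Cpt1a and 0.095 for Lipe. On leaving out each array in turn, Cd36 ranged from -0.11 to 0.037, Acaa1a from -0.21 to 0.028, Ucp3 from -1.16 to 0.31, Lipe from -0.48 to 0.093 and Mgll from -0.022 to 0.34. Leaving out knockout banded 2 turned Cd36 to 0.032, Ucp3 to 0.31 and Lipe to 0.093, leaving out knockout banded 3 turned Ucp3 to 0.26, leaving out knockout sham 1 turned Cd36 to 0.037, leaving out knockout sham 2 turned Acaa1a to 0.028 and Ucp3 to 0.072, and leaving out knockout sham 3 turned Mgll to -0.022.

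The replicate block gave 1 member for banding in knockout hearts, as without the block. Over 18 pairs of arrays with the same replicate number, the correlation of their deviations from the group means was -0.28 to 0.23, and 2 exceeded 0.1, against -0.22 to 0.28 and 10 of 36 for other pairs, so the numbers were not taken to pair the hearts. With 3 arrays a group, the number of arrays limits what these tests can detect.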

Other observations

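Without the array labelled knockout banded 1, further genes around the pathway passed for banding in knockout hearts. Dgat2, which makes triglyceride, and Plin5, which coats lipid droplets in oxidative tissue, were lower by -0.90 and -0.57 log2 (limma adjusted p = 0.024 and 0.026). Abcd3, a peroxisomal fatty acid transporter, was lower by -0.60 (adjusted p = 0.015). Among genes of glucose use, Pdk2, a pyruvate dehydrogenase kinase, and Pfkm, the muscle phosphofructokinase, were lower by -0.54 and -0.58 (adjusted p = 0.0082 and 0.040). Prkab2, the other regulatory beta subunit of AMP-activated kinase, was higher by 0.65 (adjusted p = 0.013), opposite in direction to Prkab1 at -0.93 (adjusted p = 0.00096). With all arrays, none of Dgat2, Plin5, Abcd3, Pdk2, Pfkm and Prkab2 passed.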
